A study of Homo sapiens with 2 samples.

Results

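Methyl-CpG readers and demethylation enzymes were measured on Illumina bead arrays in SW48 cells, a human cell line derived from a colorectal cancer. The set consisted of 9 genes: MBD1, MBD2, MBD4 and ZBTB33, which encode readers of methylated CpG, MBD3, of the same family as MBD2 but a poor binder of methylated CpG in mammals, and TDG, TET1, TET2 and TET3, which encode enzymes of demethylation. They were chosen by name for their role, with earlier results of these data known, and every probe annotated to them was taken. The platform's annotation gave 14 probes for 7 of the 9 genes, out of 48803 probes and 18852 named genes on the array. MBD3 and TET3 had no probe named to them in that annotation so their expression was not analysed here.

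The AKBA culture had received acetyl-11-keto-β-boswellic acid, a triterpenoid of Boswellia resin, at 20 µM for 6 days. For the control culture the labels conflict: the treatment protocol gives 0.1% dimethyl sulfoxide vehicle and the source name gives no treatment. No time in culture was recorded here for the control. Both cultures were SW48 cells in the same serum-containing medium, and each was represented by 1 array. With no replicates, no gene could be tested, and every difference is one between these 2 arrays. In a bulk culture, fewer cells of a kind and less RNA per cell cannot be told apart.

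Cytosine methylation at CpG sites is read by proteins that carry a methyl-CpG binding domain, such as MBD1, MBD2 and MBD4, and by the zinc finger protein ZBTB33, also called Kaiso. Readers recruit corepressor complexes, and MBD2 and MBD3 do so as alternative subunits of NuRD, a complex that joins chromatin remodelling with histone deacetylation. In the other direction, TET dioxygenases oxidise the methyl group and the glycosylase TDG removes the oxidised base, after which base excision repair restores an unmethylated cytosine. MBD4 and TDG also remove thymine that arises when methylated cytosine loses its amino group. In colorectal cancer, dense methylation of CpG islands silences many genes, which makes these readers and enzymes of interest in this tissue.

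The starts of the genes of the set hold CpG sites in differing number. Of 35116 windows that run from 250 bases before to 50 bases after a RefSeq transcription start (GRCh38.p14), 13 belong to the 9 genes. The windows of the 4 genes whose detected signals are compared most closely are shown, 5′ to 3′ on the strand of the gene, with each CpG in capitals to show how these sites are spread along the start.
MBD2 (chr18:54224620-54224919, minus strand): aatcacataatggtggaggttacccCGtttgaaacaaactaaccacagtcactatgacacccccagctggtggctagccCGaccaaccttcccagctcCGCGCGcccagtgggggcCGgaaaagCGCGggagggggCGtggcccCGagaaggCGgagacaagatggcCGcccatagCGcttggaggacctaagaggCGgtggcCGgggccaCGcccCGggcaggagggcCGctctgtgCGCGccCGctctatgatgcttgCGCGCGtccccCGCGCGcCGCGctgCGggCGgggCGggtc
MBD4 (chr3:129439899-129440198, minus strand): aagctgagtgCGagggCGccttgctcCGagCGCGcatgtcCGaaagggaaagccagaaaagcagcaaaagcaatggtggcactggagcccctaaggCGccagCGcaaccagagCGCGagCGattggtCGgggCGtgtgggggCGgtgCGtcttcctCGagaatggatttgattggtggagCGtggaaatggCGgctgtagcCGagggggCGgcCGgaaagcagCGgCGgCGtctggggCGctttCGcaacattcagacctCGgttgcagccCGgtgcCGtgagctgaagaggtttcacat
ZBTB33 (chrX:120250562-120250861, plus strand): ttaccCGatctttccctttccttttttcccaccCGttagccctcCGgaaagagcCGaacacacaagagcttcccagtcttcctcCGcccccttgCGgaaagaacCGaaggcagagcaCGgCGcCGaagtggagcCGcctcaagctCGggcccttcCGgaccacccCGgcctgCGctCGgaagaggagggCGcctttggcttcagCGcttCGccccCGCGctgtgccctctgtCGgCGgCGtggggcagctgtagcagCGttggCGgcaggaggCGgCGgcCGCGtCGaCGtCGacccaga
TDG (chr12:103965622-103965921, plus strand): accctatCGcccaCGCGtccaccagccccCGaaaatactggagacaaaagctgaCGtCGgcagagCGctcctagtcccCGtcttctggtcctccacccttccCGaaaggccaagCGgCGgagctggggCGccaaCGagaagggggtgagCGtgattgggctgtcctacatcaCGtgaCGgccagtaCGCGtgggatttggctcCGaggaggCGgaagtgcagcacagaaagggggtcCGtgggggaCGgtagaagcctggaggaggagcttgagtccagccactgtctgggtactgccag
The MBD2 window held 32 CpG, the MBD4 window 29, the ZBTB33 window 33 and the TDG window 22, against a median of 14 over all windows. Of all windows, 81.1% had fewer CpG than that of MBD2 and 62.3% had fewer than that of TDG. The 13 windows of the set ranged from 6 CpG, at a TET1 start, to 45, at a TET3 start. The TET1 windows, with 6, 10 and 11 CpG, and a TET2 window, with 13, lay below the median of all windows. The letters CGCG, which hold adjacent CpG and contain 2 of the CpG counted above, were in 11 of the 13 windows and in 49.9% of all windows. TCCTGCNA, the methylation-independent Kaiso sequence, was searched on both strands and was in 0 of the 13 windows and in 4.69% of all windows. These are counts of letters, and methylation of the windows was not measured.

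On the arrays, each reader and glycosylase with a named probe gave a signal by at least 1 probe, near the detection limit for MBD1 and MBD2. No TET1 or TET2 probe did. Detection was set at a p under 0.01, which means that fewer than that share of the 759 negative controls of the array were as bright as the probe. By this limit 6 of the 14 probes were detected on both arrays, 1 on the control array only and 7 on neither. The detected ones covered MBD1, MBD2, MBD4, ZBTB33 and TDG. Of all named probes, 38.8% were detected on at least 1 array.

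The AKBA array was the dimmer of the pair. It detected 23.2% of all probes, against 25.4% on the control array, and the median ratio of AKBA to control signal was 0.818 over named probes detected on both. Signals are given below as deposited, in arbitrary bead units. Folds and log2 differences were taken after background correction and quantile normalization, which evens out this difference in brightness, so that a probe with a slightly lower deposited signal on the AKBA array can stand higher after normalization. The lowest detected signal was 141 on the AKBA array and 138 on the control array.

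**Figure D1:**
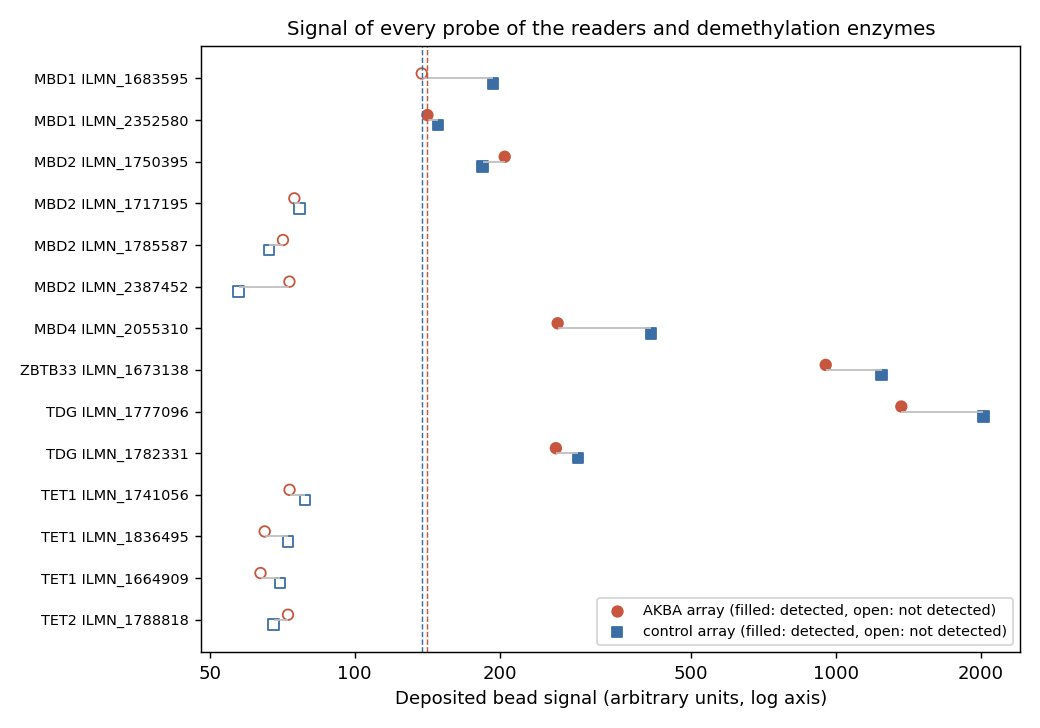
Deposited bead signal (log axis) of the 14 probes on the AKBA array (circles) and the control array (squares), with filled symbols where the probe was detected and dashed lines at the lowest detected signal of each array. The TET1, TET2 and 3 of the 4 MBD2 probes lie left of both lines, while ZBTB33 and a TDG probe lie far to the right; signals of different probes are not comparable with each other.

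MBD2, a methyl-CpG reader of the NuRD complex, was the member that stood furthest above the control. Its detected probe, ILMN_1750395, gave 205 bead units on the AKBA array and 184 on the control array. It was the only detected probe of the set whose deposited signal was higher on the AKBA array. After normalization it stood 1.48-fold higher, a log2 difference of 0.57. Of the named probes detected on both arrays, 96.8% had a lower difference, and 9.38% of probes of like brightness, the dimmest of 3 equal groups, differed by as much in either direction. The signal was near the detection limit, with 2 of the 759 controls as bright on the AKBA array and 3 on the control array.

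The other 3 MBD2 probes gave no second reading of that difference. ILMN_1785587, annotated to the same transcript record as the detected probe, gave 71.0 bead units on the AKBA array and 66.4 on the control array. ILMN_1717195 had 74.9 on the AKBA array and 76.8 on the control array. ILMN_2387452, which is annotated with ILMN_1717195 to another transcript record of the gene, had 73.2 on the AKBA array and 57.4 on the control array. All 3 lay at the level of the negative controls on both arrays, with 209 to 743 of the 759 controls as bright, so no fold is given for them.

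MBD4, a reader that is also a thymine glycosylase, stood lower on the AKBA array. Its single probe, ILMN_2055310, gave 264 bead units on the AKBA array and 412 on the control array, above every negative control on both. The normalized log2 difference was -0.43, that is 1.34-fold higher in the control. Of named probes detected on both arrays, 6.22% had a lower difference, and 12.8% of probes of like brightness, the middle group of the same 3, differed by as much in either direction. Among the probes of the set detected on both arrays, that of MBD4 had the lowest difference. Its signal was 1.87 times the lowest detected signal on the AKBA array and 2.98 times on the control array.

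MBD1, a reader with a methyl-CpG binding domain and CXXC zinc fingers, had probes that did not give the same direction. ILMN_1683595 gave 138 bead units on the AKBA array and 194 on the control array. With 8 of the 759 controls as bright, it just missed detection on the AKBA array, so only a bound is given: the control stood at least 1.29-fold above AKBA, with the AKBA side set at the lowest detected signal of that array. This bound holds for the main processing, and over the other settings of background correction and scaling it lay between 1.18-fold and 1.44-fold. ILMN_2352580 gave 142 bead units on the AKBA array and 149 on the control array, and its normalized log2 difference was 0.20. It passed detection narrowly, with 7 controls as bright on the AKBA array and 6 on the control array. These probes are annotated to different transcript records of a gene with many isoforms, and no direction for MBD1 as a whole can be read from them.

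ZBTB33, which encodes the reader Kaiso, differed little. Its single probe, ILMN_1673138, gave 951 bead units on the AKBA array and 1243 on the control array, above every negative control on both. The normalized log2 difference was -0.07, close to the median of all named probes detected on both arrays, 0.0036. Of those probes, 79.9% differed by as much or more.

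TDG, the thymine and oxidised-cytosine glycosylase, was measured by a pair of probes annotated to the same transcript record, both above every negative control on both arrays. ILMN_1777096 gave 1366 bead units on the AKBA array and 2021 on the control array, and a normalized log2 difference of -0.24. ILMN_1782331 had 262 on the AKBA array and 291 on the control array, and a normalized difference of 0.16. The deposited signals of both were lower on the AKBA array, but after normalization the probes lay on opposite sides of 0, with a gap of 0.40. For scale, 1677 genes had a pair of probes or more with detection on both arrays. Their median gap between the brightest pair was 0.19, and 17.1% of them had a larger gap than TDG. In 61.9% of those genes the brightest pair had the same sign, so a single probe's small difference is weakly repeated by another probe on these arrays.

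The TET dioxygenase genes TET1 and TET2 were not detected on either array, and TET3 had no named probe. The 3 TET1 probes gave 63.7 to 73.2 bead units on the AKBA array and 69.9 to 78.9 on the control array, with 254 to 569 of the 759 controls as bright on the AKBA array and 186 to 413 on the control array. The single TET2 probe, ILMN_1788818, had 72.7 on the AKBA array and 67.9 on the control array, with 266 controls as bright on the AKBA array and 475 on the control array. All 4 probes lay below the median signal of the whole array, which was 78.3 on the AKBA array and 80.9 on the control array. TET1 and TET2 transcripts were thus not detectable with these probes in either culture, and no fold is given.

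The detected probes of the set did not move in 1 direction. Of the 7 detected on at least 1 array, 3 stood above 0 and 4 below, against 47.9% and 52.0% of the 10902 named probes so detected. At a log2 difference of at least 0.32 in size, 1 stood higher, MBD2, against 12.1% of those 10902 probes. By the same limit 2 stood lower, MBD4 and the MBD1 probe with only a bound, which also passed at that bound, against 14.8%. With the authors' processed values, 1 stood higher, against 8.60% of all probes, and 3 lower, the brighter TDG probe among them, against 23.8%; the median of all probes was then -0.10. At 1.5-fold, 0 of the 7 stood higher and 0 lower, against 3.17% and 4.37%, and at 2-fold it was 0 each, against 0.541% and 0.358%. The counts of the set are near these shares and give no result particular to it. The median log2 difference of the 7 was -0.07 and that of the 10902 was -0.01. Over the 6 probes detected on both arrays the median was 0.05, against 0.0036 over 9854 probes.

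**Figure D2:**
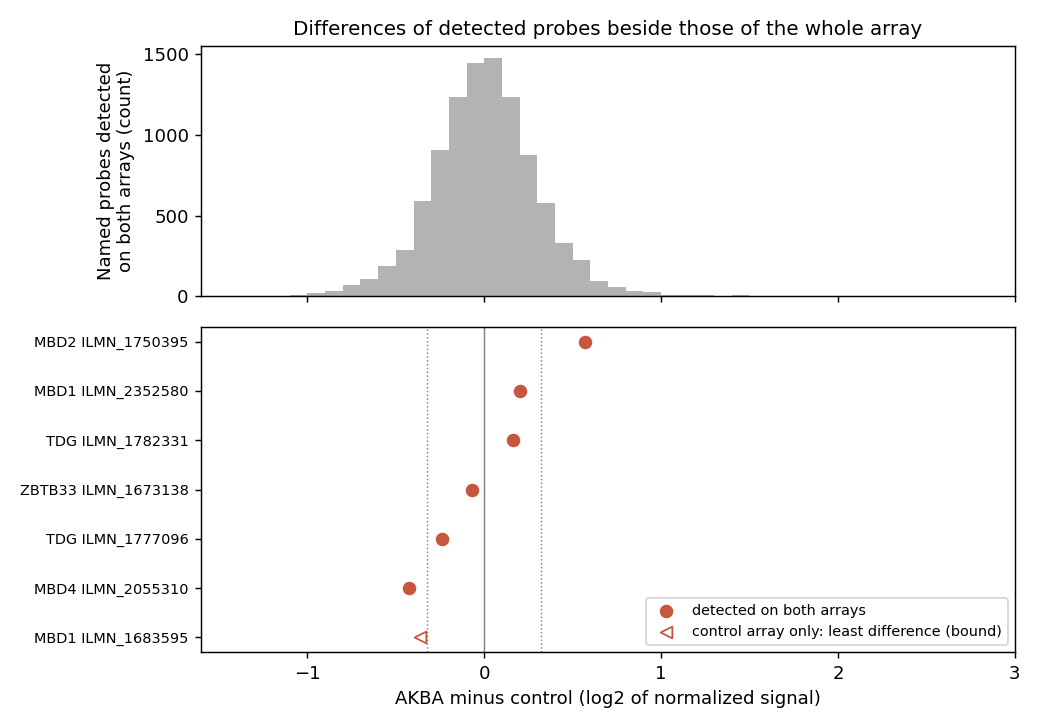
Log2 difference, AKBA minus control, after normalization: the upper panel counts all 9854 named probes detected on both arrays in bins, and the lower panel shows the 7 detected probes of the set, the MBD1 probe detected on the control array only at its bound (triangle), with dotted lines at 0.32 above and below 0. MBD2 at 0.57 and MBD4 at -0.43 lie toward opposite edges of the main body of probes, and the pairs of TDG and MBD1 probes straddle 0.

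The spread of the whole array sets the scale for these values. The SD of the log2 difference across named probes detected on both arrays was 0.34 in the dimmest group, 0.29 in the middle group and 0.27 in the brightest. MBD2, at 0.57, lay less than 2 such SDs from 0 in its group, as did MBD4, at -0.43, in its own. Across probes this SD holds both noise and real differences, and it does not measure how far replicate cultures would differ.

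For the 6 probes detected on both arrays, the processing changed the sizes of these differences but not their signs. Over 7 settings of background correction and scaling, MBD2 stood between 0.40 and 0.59 and MBD4 between -0.56 and -0.35. The brighter TDG probe ranged from -0.33 to -0.23 and the dimmer one from 0.07 to 0.18. ZBTB33 ranged from -0.15 to -0.05. The MBD1 probe ranged from 0.12 to 0.27. All 7 settings scaled the arrays to each other, so these ranges do not show the signs without that step. As deposited, the dimmer TDG probe and this MBD1 probe had lower signals on the AKBA array. With the mean over detected probes in place of the brightest probe, TDG stood at -0.04 rather than -0.24.

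**Figure D3:**
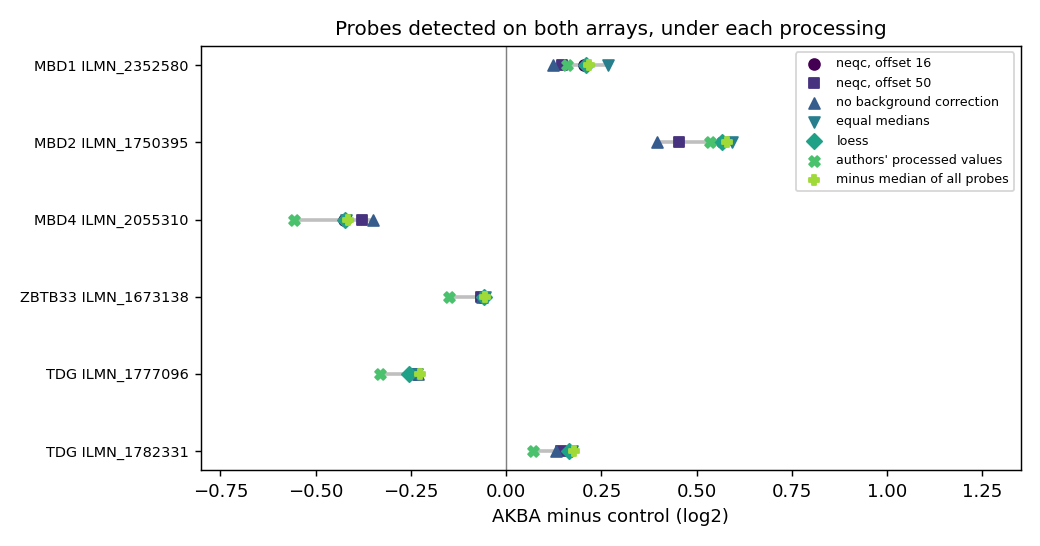
Log2 difference, AKBA minus control, of the 6 probes detected on both arrays under 7 settings of background correction and scaling, 1 symbol per setting, with a grey line from the lowest to the highest. Every probe stays on its side of 0, and the authors' processed values lie lowest for MBD4, ZBTB33 and both TDG probes.

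Genes that work with the set were described in 4 lists, each gene by the brightest of its probes. Over all 8639 genes detected on at least 1 array, 46.4% stood above 0 and 53.5% below, with a median of -0.02. By at least 0.32 on the log2 scale, 11.1% of them stood higher and 15.1% lower. At 1.5-fold these shares were 2.91% and 4.36%, and at 2-fold 0.405% and 0.347%. Of the detected genes of the 4 lists, 1 stood higher at 1.5-fold, RBBP4, and 0 stood lower, and at 2-fold there was none. By the brightest probe the set itself had 5 detected genes, 1 above and 4 below 0, and a median of -0.24, which is the value of the brighter TDG probe. MBD1 is among the 4 by its probe with only a bound. With the mean over detected probes the median of the set was -0.07, and over the 4 genes whose brightest probe was detected on both arrays it was -0.15.

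The list called other methyl-CpG readers also holds relatives by domain that are not established binders of methylated CpG. Its genes lay on both sides of 0. Of 11 genes, 10 had a probe and 7 were detected, with 2 above and 5 (71.4%) below 0, against 53.5% of all detected genes, 1 higher and 3 lower by at least 0.32, and a median of -0.22. SETDB1, a histone methyltransferase with a methyl-CpG binding domain, stood at -0.57 with signals of 188 on the AKBA array and 305 on the control array. UHRF2, a paralogue of the maintenance factor UHRF1, stood at -0.46 with 194 on the AKBA array and 297 on the control array. At the other end, SETDB2, a paralogue of SETDB1, stood at 0.41 with 382 on the AKBA array and 370 on the control array, and MBD6 at 0.16.

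Base excision repair genes, which act after TDG and MBD4, were almost all detected and showed no shared direction. Of 14 genes, 13 had a probe and all 13 were detected, with 8 above and 5 below 0, 0 higher and 2 lower by at least 0.32, and a median of 0.06. The uracil glycosylase UNG stood lowest, at -0.46, with signals of 2538 on the AKBA array and 4315 on the control array, and the glycosylase NTHL1 stood at -0.19. APEX1, the endonuclease that cuts the abasic site left by a glycosylase, stood at 0.31 with 3549 on the AKBA array and 3555 on the control array. Its other probe detected on both arrays stood at 0.14. The ligase LIG3 also stood at 0.31.

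Deaminases, GADD45 genes and genes that bear on TET activity were detected in part. Of 11 genes, 10 had a probe and 6 were detected, with 4 above and 2 below 0, 2 higher and 1 lower by at least 0.32, and a median of 0.18. IDH1, a dehydrogenase that makes the 2-oxoglutarate TET enzymes use, stood at 0.43 with signals of 2558 on the AKBA array and 2378 on the control array, and its other detected probe at 0.31. GADD45A, a stress gene that has been linked to active demethylation, stood at 0.34 and 0.50 by its probes. OGT, a glycosyltransferase that binds TET proteins, stood at -0.44 and -0.37 by its probes, and IDH2 at -0.10. In IDH1, GADD45A and OGT both detected probes thus lay on the same side of 0. The cytidine deaminase genes APOBEC1 and APOBEC3B were not detected on either array.

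NuRD and other corepressor genes, the partners of MBD2 and Kaiso, lay on both sides. Of 19 genes, 16 had a probe and 15 were detected, with 6 above and 9 below 0, 2 higher and 1 lower by at least 0.32, and a median of -0.10. MTA2, a NuRD scaffold subunit, stood at -0.48 with signals of 1010 on the AKBA array and 1745 on the control array. The NuRD remodeller CHD4 stood at -0.25, and at -0.11 by its other detected probe. MTA3 stood at 0.33. RBBP4, a histone chaperone of NuRD, stood at 0.79 with signals of 338 on the AKBA array and 266 on the control array, but its other detected probe stood at -0.01, so that difference rests on 1 probe.

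**Figure D4:**
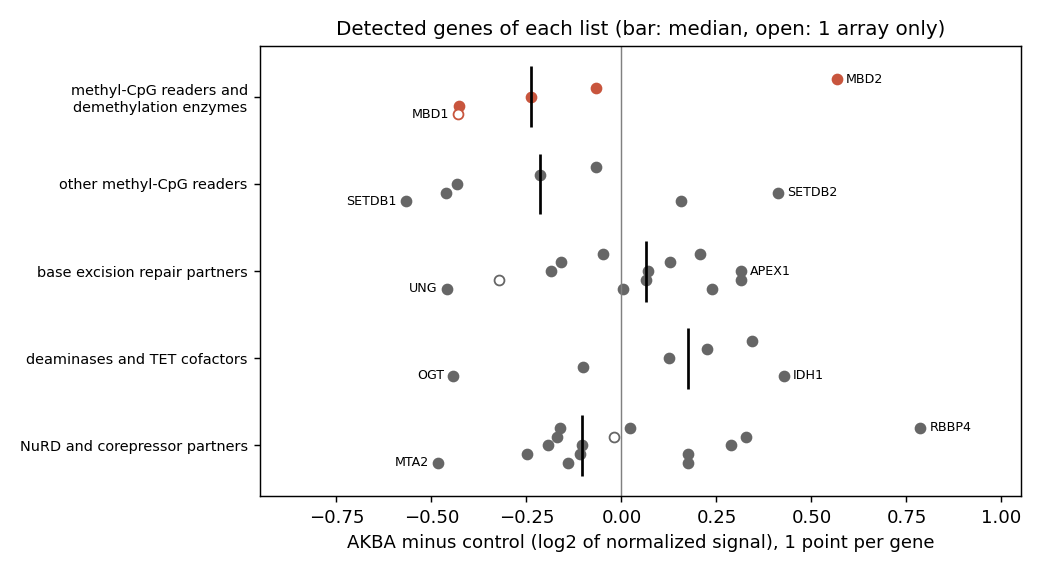
Log2 difference, AKBA minus control, of each detected gene in the set and in 4 lists of genes that work with it, by the brightest probe, with a bar at each list's median, open symbols for genes detected on 1 array, whose size is uncertain, and the outermost genes named. The median of the set is -0.24 by the brightest probe and -0.07 by the mean over probes, that of the deaminases and TET cofactors is 0.18, and every list holds genes on both sides of 0.

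Markers of the labelled cell type were checked on the same arrays. Of 10 markers of colorectal epithelium, 6 were detected, among them EPCAM, CDH1 and CDX2, while KRT20, CDX1, VIL1 and LGALS4 were not. The brightest probes of the 10 summed to a signal of 14684 on the AKBA array and 15634 on the control array. None of 6 fibroblast and 3 endothelial markers was detected. Of 5 leukocyte markers, the lysosomal gene CD68 and LYZ were detected, and PTPRC and CD3E were not.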

How the data were processed

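Column-purified total RNA was amplified into labelled complementary RNA for hybridisation, per the labels' protocols, which name both biotin and Cy3 as the label. Each probe has a deposited intensity on either array and a deposited detection p-value; the intensities keep their background and their unequal brightness, judging by their values. The authors' processed intensity table follows the deposited signals in a straight line (slope 1.20, intercept -86.5 and median 7.63 on the AKBA array, and slope 1.00, intercept -74.7 and median 6.50 on the control array). The software names were not given in the sources used here.

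The whole table of signals was processed with neqc of limma 3.58.1 in R 4.3.3 (normexp background inferred from the detection p, offset 16, quantile normalization, log2). Tables and figures used Python 3.11.15, numpy 2.4.6, pandas 2.3.3 and matplotlib 3.10.9. In the platform's annotation 28098 probes carry a single gene, 13 carry several and 20692 are unnamed. Symbols were updated by Entrez identifier for 28059 probes from a RefSeq table (GRCh38.p14). Promoter windows are RefSeq's. The brightest probe by mean normalized signal stood for a gene. Only the normalization step was tested on simulated data, with known changes set only in probes well above background.

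With 1 array per group nothing was tested, and the number of arrays limits the precision. Named genes were all probes of the 9 genes and, of each list, the 2 highest and 2 lowest genes detected on both arrays. UHRF1, APOBEC1 and APOBEC3B and the cell type markers are mentioned beyond that rule. The genes and lists were chosen with earlier results of these data known. Alternatives were offset 50, no background correction, equal medians, loess, the authors' processed values (values under 16 set to 16), centring on the median of all detected probes, other detection limits and folds, and the mean over probes.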

Additional observations from a re-analysis of the deposited data

How the results depend on the processing

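No paired analysis was possible because each group has 1 array. Of 36 values of the 6 probes detected on both arrays under alternative background correction or scaling, 0 changed sign. All of these alternatives scaled the arrays to each other. The count of probes higher by at least 0.32 on the log2 scale, 1, was 0 with a detection p under 0.001, where the MBD2 probe is no longer detected, and 0 at a fold limit of 1.5 or 2. The count of lower probes, 2, was 1 with no background correction, 1 with a detection p under 0.001 and 1 among probes detected on both arrays, which leaves MBD4 in each case. It was 3 with the authors' processed values, where 23.8% of all probes stood lower, and 0 at a fold limit of 1.5 or 2. With offset 50 the count stayed at 2, but the bound of the MBD1 probe was then 0.28 on the log2 scale and fell short of 0.32. The number of probes detected on 1 array, 1, was 0 with a detection p under 0.05 or under 0.001. The median over base excision repair genes, 0.06, turned to -0.03 with the authors' processed values. That over deaminases and TET cofactors, 0.18, was 0.07 with no filter on detection and 0.09 with the authors' values. That over other readers, -0.22, was -0.35 with the authors' values and -0.14 with no filter, and that over NuRD and corepressor genes, -0.10, was -0.19 with the authors' values. That over the 5 detected genes of the set, -0.24, ranged from -0.33 with the authors' values to -0.07 with the mean over probes. With no filter on detection, TET1 and TET2 entered as well. The median of the set, -0.07, then fell on a TET1 probe at the level of the negative controls. These alternatives were chosen after seeing the data, as were those of the MBD1 bound. The median over the probes of the set was -0.07. It was -0.15 with the authors' values or a detection p under 0.001, and 0.05 among probes detected on both arrays. Low signal limits the TET1 and TET2 probes, which were not detected, and the detected MBD1 and MBD2 probes, which lay at no more than 1.45 times the lowest detected signal.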
